A study of Mus musculus with 6 samples.

Results

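The gene set described here holds 40 genes of RNA sensing and the interferon response, and all 40 were found among the 21978 entries of the deposited count table. The genes were taken by symbol from a given list of sensors, signalling parts and induced genes. The list was drawn up with measured values of these libraries known. Zbp1, Ifi35, Ifitm3 and Oas1a had already been singled out for their values, so they are described with no test and enter no count of passing genes. Of the other 36 genes, 33 passed the filter on low counts, and Isg15, Usp18 and Ifit3 did not.

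Poly(A)-selected RNA was sequenced in 6 libraries from mouse embryonic stem cells, 2 in each of 3 groups that differ in DGCR8, the partner of Drosha in the release of miRNA precursors. E518K cells (clones 8 and 15, genotype label E518K/E518K) were transfected with pSB ET iE-FlagDGCR8-E518K together with pCMV(CAT)-SB100X. KO cells (libraries 1 and 3) were labelled DGCR8 -/- and were not transfected, and both titles carry clone number 261. The wt cells (clones 12 and 16, genotype label wt/wt) were transfected with pSB ET iE-FlagDGCR8-wt together with pCMV(CAT)-SB100X. All 6 libraries share the strain label NBA1-19349 from Novus Biochemicals, doxycycline at 300 ng/mL for 48 h, and growth without feeders in LIF with the inhibitors CHIR99021 and PD0325901. Transfection therefore differs between KO and the other groups along with DGCR8, and the contributions of these differences cannot be told apart. No label says which parental line the transfected cells came from. The design text speaks of independent clones, but with 1 clone number on both KO titles the p-values measure only how far these libraries spread, and that spread may be technical in KO.

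Double-stranded RNA in the cytosol is bound by RIG-I (Ddx58) and MDA5 (Ifih1), which signal through MAVS and the kinase TBK1 to IRF factors that switch on interferon genes. Secreted type I interferon binds receptors coupled to JAK1 and TYK2. STAT factors activated by interferon receptors induce many antiviral genes through promoter elements known as ISRE and GAS. Pluripotent stem cells are known for a weak interferon response. In bulk RNA, fewer cells that express a gene and less RNA per cell cannot be told apart.

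Totals ranged from 73642784 to 75121971 counts per library. Dgcr8 had 820.6 and 420.2 CPM (counts scaled to library size) in E518K, 39.96 and 37.1 CPM in KO and 195.5 and 992.4 CPM in wt, so it was lowest in KO, and the wt clones differed widely. The 10 embryonic stem cell markers summed to 6820 and 6794 CPM in E518K and 5735 and 5642 CPM in KO. In wt they summed to 7490 and 6458 CPM. Of the 10, 8 were called lower and 1 higher in KO than in wt, beside 29.7% and 27.4% of all tested genes. Fibroblast and feeder markers summed to 4.36 to 8.88 CPM, with 5 of 10 under 1 CPM in every library. Blood and immune markers summed to 324 to 345 CPM, most of it Laptm5 at 275 to 300 CPM, while the leukocyte marker Ptprc reached at most 0.129 CPM. Markers of differentiated derivatives summed to 42.1 and 41.5 CPM in E518K, 22.98 and 25.7 CPM in KO and 35.3 and 36.7 CPM in wt. Of these 10, 1 was called higher and 3 lower in KO against wt, close to the 27.4% and 29.7% of all tested genes. The part of these marker levels in the results below was not tested.

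The ISRE core was searched as GAAA, any 2 bases, then GAAA, on both strands, in the RefSeq promoters of the build GRCm38.p6, from 250 bases before to 50 bases after a start site. Of the 40 genes, 34 had a promoter there, and 13 of these (38.2%) held the core, against 3.64% of 11985 tested genes with a promoter. GAS, searched as TTC, any 3 bases, then GAA, was present in 12 of the 34 (35.3%), against 8.09% of tested genes. A match is a description of the letters and not evidence of binding. Of the 13, Ifitm3 and Oas1a have no test, Isg15 and Ifit3 did not pass the filter and 9 were tested. In KO against wt 5 of these 9 rose, 3 fell and 1 was not called. Of 11991 tested entries with a promoter, 27.7% were called higher and 30.9% lower. Ifih1 and Ifit1, among the 5 that rose, passed the filter only through KO. The stretches below are shown because genes that share this core did not share a direction. They leave out Ifit3 and also Ifih1, Ifit1 and Ifitm3, whose levels were higher in KO than in wt. The genes shown therefore do not give the balance of directions among the 13. Rsad2 (chr12:26456555-26456580, minus strand), Eif2ak2 (chr17:78882537-78882562, minus strand) and Ddx58 (chr4:40239806-40239831, minus strand) were higher in KO than in wt. Stat2 (chr10:128270268-128270293, plus strand), Ifitm2 (chr7:140955990-140956015, minus strand) and Bst2 (chr8:71537579-71537610, minus strand) were lower. B2m (chr2:122147540-122147565, plus strand) was lower in E518K than in wt, and Isg15 (chr4:156200867-156200904, minus strand) was close to undetected in every library. Oas1a (chr5:120907522-120907553, minus strand), one of the genes described without a test, also had higher levels in KO than in wt. Capitals mark the core or its reverse complement, and all are written 5′ to 3′ on the strand of the gene.
Rsad2: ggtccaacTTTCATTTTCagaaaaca
Eif2ak2: tccgccggGAAAACGAAAcagaagag
Ddx58: tgaggcagTTTCGATTTCctatggcc
Stat2: caccctggTTTCAGTTTCctttccct
Ifitm2: accaacagGAAAAGGAAAttgctaga
Bst2: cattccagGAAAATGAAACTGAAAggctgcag
B2m: aagaacatGAAACTGAAAatgggaaa
Isg15: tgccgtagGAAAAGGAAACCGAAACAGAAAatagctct
Oas1a: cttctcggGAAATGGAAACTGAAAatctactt

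More of the genes were higher than lower in KO cells. Of the 33 tested genes, 18 rose and 5 fell in KO against wt (edgeR quasi-likelihood test, adjusted p under 0.05 over all 16498 tested genes). Of all tested genes, 27.4% were called higher and 29.7% lower in that comparison. Of the 18 that rose, 13 did so at least 2-fold, beside 11.6% of all tested genes, and each of the 5 that fell did so by less than 2-fold, beside 10.0% of all tested genes called at least 2-fold lower. In 20 genes both KO libraries lay above both wt libraries and in 5 below, beside 40.1% and 41.6%. The median log2 fold change was 0.71 over the 33 genes and -0.02 over all tested genes. In E518K against wt, 9 rose and 4 fell, beside 11.3% and 12.5% of all tested genes, with a median of 0.22 against -0.02. At least 2-fold, 4 rose and 1 fell, beside 2.30% and 4.34%, and the libraries lay apart upward in 17 and downward in 10, beside 30.2% and 31.8%. Leaving out Ifih1 and Ifit1, which have no bound in that comparison, the median was 0.16. Without E518K clone 15 the 13 calls came down to 1, which was Ifitm1, and the calls over all genes to 644, against 3917 with it. They were 7 without E518K clone 8 and 6 without either KO library. In E518K against KO, 2 rose and 17 fell, beside 22.0% and 19.8%, with a median of -0.60 against -0.02. At least 2-fold, 1 rose and 11 fell, beside 3.97% and 6.44%, and without KO library 1 the 19 calls came down to 12. The libraries lay apart upward in 8 and downward in 22, beside 39.4% and 41.1%. These counts describe a list chosen with results known. Ifih1, Ifit1, Ifit2 and Psmb8 would not pass the filter on low counts without the KO libraries. Without these 4 genes, 15 of 29 rose and 5 fell in KO against wt (median 0.69). In E518K against wt 9 rose and 4 fell (median 0.16), and in E518K against KO 2 rose and 14 fell (median -0.52). At least 2-fold, 10 rose and 0 fell in KO against wt, and 4 rose and 1 fell in E518K against wt. In E518K against KO, 1 rose and 8 fell at least 2-fold. Counts of libraries lying apart were not redone without these genes. The comparisons share libraries, so each is given with its own values.

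**Figure D1:**
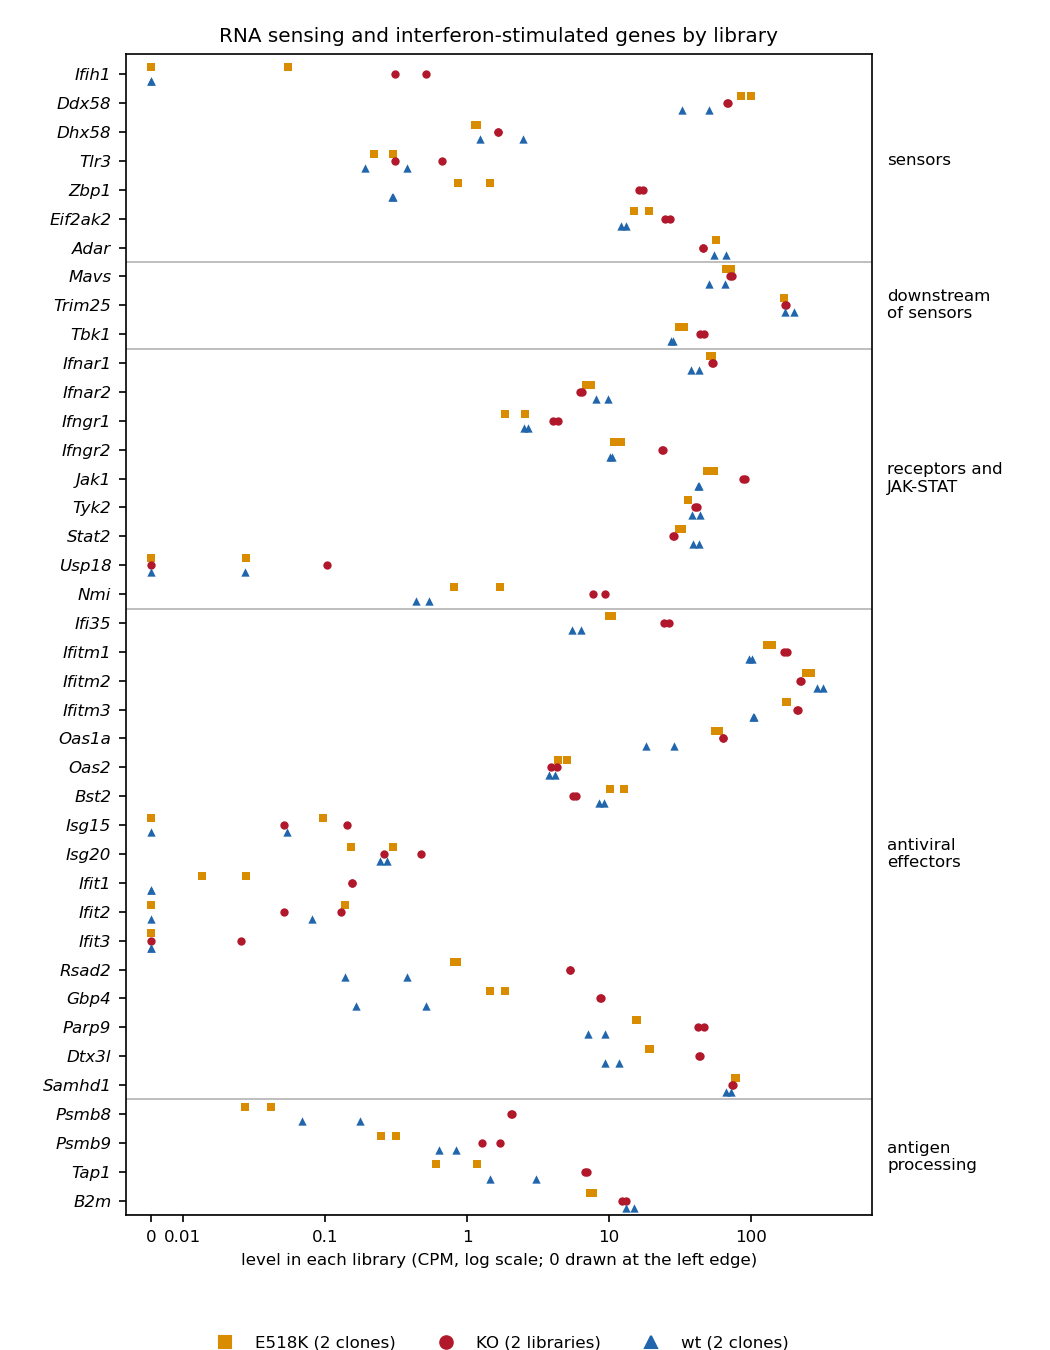
Level of each of the 40 genes in CPM on a log scale, 1 point per library, with zeros drawn at the left edge and genes grouped by role. KO points lie to the right of the others for genes such as Zbp1, Nmi, Rsad2, Gbp4 and Psmb8, and Isg15, Usp18, Ifit2 and Ifit3 stay near the detection floor.

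**Figure D2:**
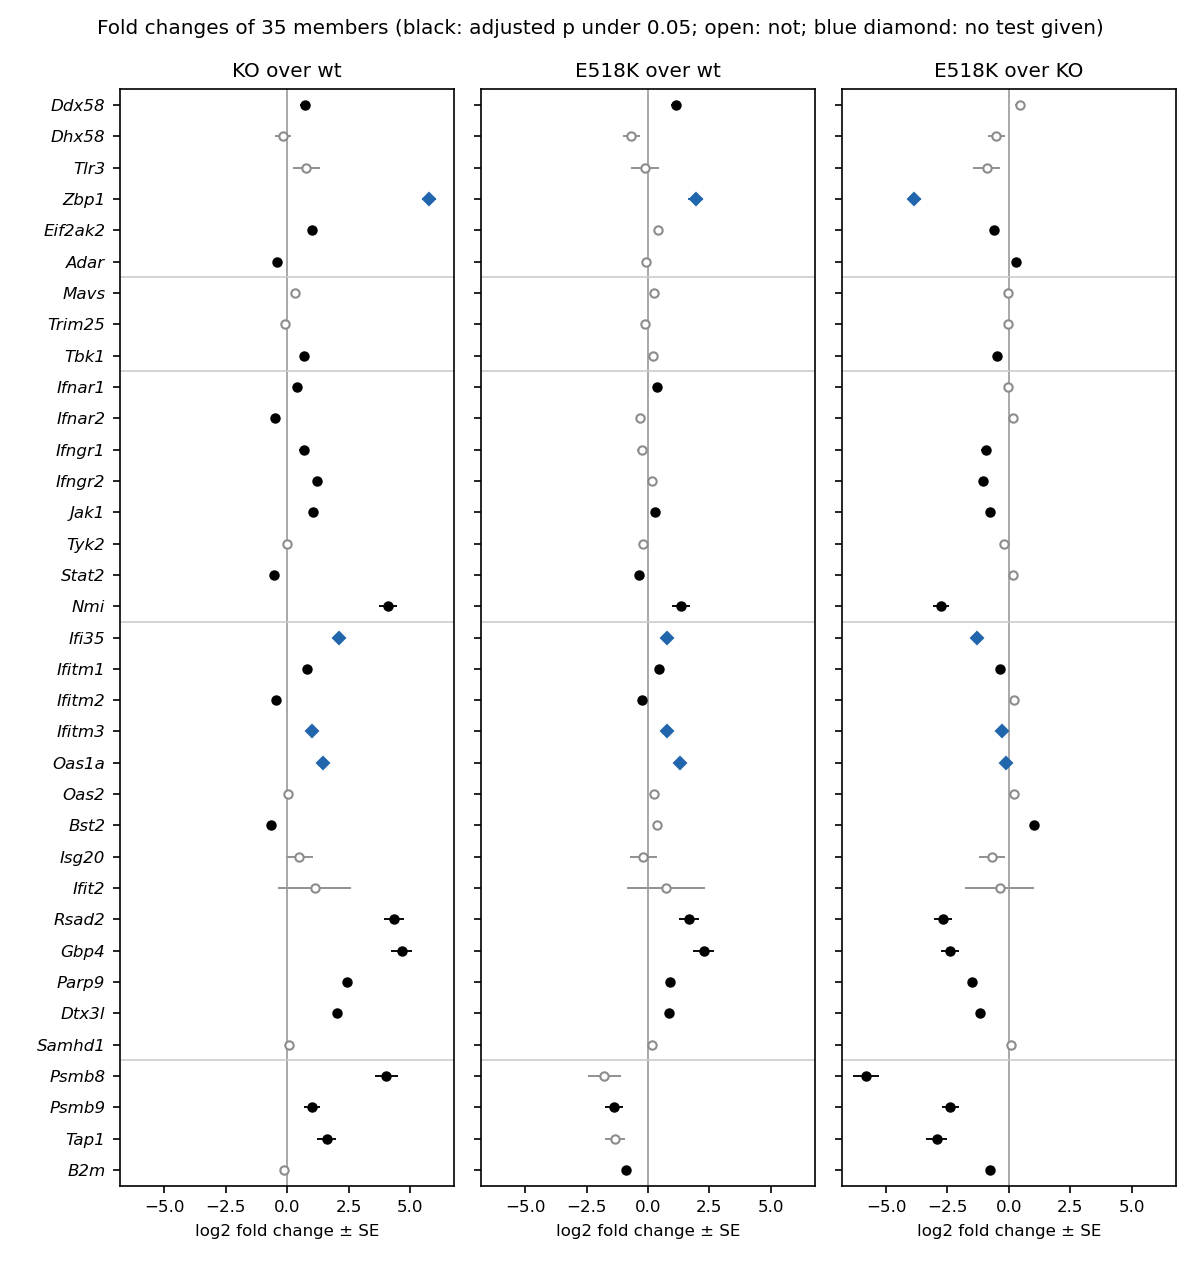
Log2 fold change and standard error of 35 genes in the 3 comparisons, with black points for adjusted p under 0.05, open points for the rest and blue diamonds for the 4 genes without a test. Ifih1 and Ifit1, at 0 in both wt libraries, and the 3 untested genes are left out.

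Among the sensors, KO cells had more RNA than wt for RIG-I, MDA5 and PKR and less for Adar, though RIG-I was highest in E518K. Against wt, 3 of 6 tested genes rose and 1 fell, or 2 and 1 of 5 without Ifih1, which passed the filter through KO. Of all tested genes, 27.4% were called higher and 29.7% lower, and counts this small say little beside those shares. Ddx58, which encodes RIG-I, had 84.2 and 99.1 CPM in E518K, 67.4 and 68.6 CPM in KO and 32.4 and 50.7 CPM in wt. It rose in both comparisons with wt, with log2 fold changes of 1.14 ± 0.19 (SE) in E518K (adjusted p = 0.0081) and 0.71 ± 0.19 in KO (adjusted p = 0.0156). No library of E518K or KO overlapped wt. Both E518K libraries lay above both KO libraries, but E518K against KO gave 0.43 ± 0.19 (adjusted p = 0.107). Leaving out E518K clone 15 ended the E518K call (1.03, adjusted p = 0.0837), and the KO call went without KO library 1 (0.72, adjusted p = 0.0519) or KO library 3 (0.70, adjusted p = 0.0585).

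Eif2ak2, the double-stranded RNA kinase PKR that blocks translation, had 14.9 and 19.0 CPM in E518K, 24.7 and 26.8 CPM in KO and 12.2 and 13.2 CPM in wt. The groups did not overlap, with E518K between the other two. In KO, it rose against wt by 1.02 ± 0.14 on the log2 scale (adjusted p = 0.000784) and fell in E518K against KO by 0.60 ± 0.13 (adjusted p = 0.0106), while E518K against wt gave 0.42 ± 0.14 (adjusted p = 0.0636). The E518K against KO call did not survive without E518K clone 8 (-0.43, adjusted p = 0.0594), KO library 1 (-0.66, adjusted p = 0.0517) or KO library 3 (-0.54, adjusted p = 0.092).

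Ifih1, which encodes MDA5, had 4 and 0 counts in E518K, 24 and 40 counts in KO and 0 counts in both wt libraries. Taking wt at the floor of 3 counts per library, its level was at least 10.1-fold higher in KO than in wt. The ratio of summed counts in E518K to KO was 0.0666, with an exact interval for counting error of 0.0176 to 0.179. Ifih1 passed the filter on low counts only through its KO counts, so its calls against KO are no separate support. Its E518K against KO call was lost without E518K clone 15 (-2.84), KO library 1 (-4.14) or KO library 3 (-3.41).

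Adar, which edits double-stranded RNA and keeps it from being sensed, ran the other way. It had 56.4 and 56.6 CPM in E518K, 45.8 and 46.0 CPM in KO and 55.1 and 66.0 CPM in wt. It fell in KO against wt by 0.40 ± 0.09 on the log2 scale (adjusted p = 0.00928) and was 0.30 ± 0.09 higher in E518K than in KO (adjusted p = 0.0392). The KO against wt call was lost without KO library 1 (-0.40, adjusted p = 0.0628) or KO library 3 (-0.40, adjusted p = 0.0611). The E518K against KO call did not survive without E518K clone 8 (0.31, adjusted p = 0.136), E518K clone 15 (0.32, adjusted p = 0.117), KO library 1 (0.30, adjusted p = 0.178) or KO library 3 (0.30, adjusted p = 0.171). Adar shares 18.9% of its span with Chrnb2 on the other strand, and whether the counting used strand is not stated.

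Zbp1, a sensor of Z-form nucleic acids that triggers cell death, was low in E518K at 0.861 and 1.45 CPM, reached 16.1 and 17.2 CPM in KO, and was lowest in wt at 0.303 and 0.297 CPM. Its log2 fold changes were 5.78 ± 0.29 in KO against wt, 1.94 ± 0.30 in E518K against wt and -3.84 ± 0.25 in E518K against KO. These values were among those that led to the list. Dhx58, a regulator of the other 2 helicases, had 1.14 and 1.18 CPM in E518K, 1.66 and 1.66 CPM in KO and 2.47 and 1.24 CPM in wt, and passed no comparison. Tlr3, the endosomal double-stranded RNA receptor, lay at 0.193 to 0.672 CPM in every library and passed none either.

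Downstream of the sensors, the kinase Tbk1 was the 1 of 3 genes to pass a test. In KO against wt, 27.4% of all tested genes were called higher. Tbk1 had 31.1 and 33.4 CPM in E518K, 46.3 and 43.7 CPM in KO and 28.3 and 27.2 CPM in wt, with no overlap between groups. Tbk1 rose in KO against wt by 0.70 ± 0.08 (adjusted p = 0.000448), fell in E518K against KO by 0.48 ± 0.08 (adjusted p = 0.0033), while E518K against wt gave 0.22 ± 0.08 (adjusted p = 0.0967). The E518K against KO call was lost without KO library 1 (-0.43, adjusted p = 0.0561). Mavs, the mitochondrial adaptor of both helicases, had 66.2 and 72.2 CPM in E518K, 73.4 and 70.3 CPM in KO and 65.8 and 50.2 CPM in wt. Trim25, the ubiquitin ligase linked to RIG-I activation, had 168.9 to 201 CPM over all libraries. Neither passed in any comparison.

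Of 8 tested receptor and STAT pathway genes, 5 rose and 2 fell in KO against wt, beside 27.4% and 29.7% of all tested genes. The signal kinase Jak1 had 49.2 and 54.3 CPM in E518K, 87.6 and 89.6 CPM in KO and 43.1 and 42.0 CPM in wt. It rose in KO by 1.06 ± 0.07 (adjusted p = 6.99e-05) and in E518K by 0.28 ± 0.07 (adjusted p = 0.0343), and fell in E518K against KO by 0.78 ± 0.07 (adjusted p = 0.000448). The E518K against wt call did not survive without E518K clone 8 (0.35, adjusted p = 0.0501), E518K clone 15 (0.22, adjusted p = 0.162), KO library 1 (0.28, adjusted p = 0.105) or KO library 3 (0.28, adjusted p = 0.105). The partner of Jak1 at the type I receptor is Tyk2. Tyk2 had 35.6 and 35.9 CPM in E518K, 41.6 and 40.2 CPM in KO and 43.2 and 38.4 CPM in wt, and passed no comparison.

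The chains of the interferon gamma receptor were higher in KO. Ifngr2 had 12.1 and 10.8 CPM in E518K, 23.7 and 23.9 CPM in KO and 10.2 and 10.5 CPM in wt. In KO, it rose against wt by 1.20 ± 0.11 (adjusted p = 0.000144) and fell in E518K against KO by 1.06 ± 0.11 (adjusted p = 0.000492), while E518K against wt gave 0.15 ± 0.11 (adjusted p = 0.349). Ifngr1 had 2.57 and 1.84 CPM in E518K, 4.34 and 4.04 CPM in KO and 2.51 and 2.70 CPM in wt. Ifngr1 rose in KO against wt by 0.69 ± 0.22 (adjusted p = 0.0302) and fell in E518K against KO by 0.93 ± 0.22 (adjusted p = 0.0132). Without KO library 1 or KO library 3 the KO against wt call was lost (0.63 and 0.74, adjusted p = 0.171 and 0.117). The E518K against KO call was lost without those same libraries (-0.87 and -0.98, adjusted p = 0.105 and 0.0757) and without E518K clone 15 (-0.69, adjusted p = 0.0832).

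The chains of the type I interferon receptor parted. Ifnar1 had 52.7 and 51.2 CPM in E518K, 53.7 and 53.2 CPM in KO and 37.9 and 42.7 CPM in wt. It rose in KO against wt by 0.41 ± 0.08 (adjusted p = 0.00432) and in E518K against wt by 0.37 ± 0.08 (adjusted p = 0.0196), and E518K against KO gave -0.04 ± 0.08 (adjusted p = 0.706). Ifnar2 had 6.89 and 7.41 CPM in E518K, 6.48 and 6.20 CPM in KO and 9.88 and 8.10 CPM in wt, and fell in KO against wt by 0.50 ± 0.15 (adjusted p = 0.0232). The Ifnar1 call in E518K was lost without E518K clone 8 (0.35, adjusted p = 0.0939), E518K clone 15 (0.40, adjusted p = 0.093), KO library 1 (0.37, adjusted p = 0.0647) or KO library 3 (0.37, adjusted p = 0.0643). The Ifnar2 call was lost without KO library 1 (-0.54, adjusted p = 0.112) or KO library 3 (-0.47, adjusted p = 0.152). Both genes and Ifngr2 lie within 100000 bases of their neighbour on chromosome 16.

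Stat2, the STAT factor of the type I pathway, was lowest in KO. It had 32.7 and 30.9 CPM in E518K, 28.7 and 28.3 CPM in KO and 39.0 and 43.1 CPM in wt, and fell against wt in KO by 0.53 ± 0.08 (adjusted p = 0.00169) and in E518K by 0.37 ± 0.08 (adjusted p = 0.0219). The E518K call did not survive without E518K clone 8 (-0.41, adjusted p = 0.0706), E518K clone 15 (-0.32, adjusted p = 0.142), KO library 1 (-0.37, adjusted p = 0.0747) or KO library 3 (-0.37, adjusted p = 0.0746). Nmi, a binding partner of STAT factors, had the largest fold change in KO against wt of the 8 tested genes of the receptor and STAT group. Nmi had 0.805 and 1.70 CPM in E518K, 7.73 and 9.32 CPM in KO and 0.441 and 0.541 CPM in wt. In KO, it rose against wt by 4.11 ± 0.38 (adjusted p = 0.000173) and in E518K against wt by 1.35 ± 0.38 (adjusted p = 0.0406), and fell in E518K against KO by 2.76 ± 0.34 (adjusted p = 0.00103). Its E518K against wt call did not survive without E518K clone 15 (0.72, adjusted p = 0.198), KO library 1 (1.35, adjusted p = 0.0786), KO library 3 (1.35, adjusted p = 0.0812), wt clone 12 (1.21, adjusted p = 0.127) or wt clone 16 (1.503, adjusted p = 0.0665). Usp18, the brake on the type I receptor, had 2 and 0 counts in E518K, 8 and 0 counts in KO and 2 and 0 counts in wt, and was not tested.

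Among the antiviral effectors, 6 of 12 tested genes rose and 2 fell in KO against wt, or 5 and 2 of 10 without Ifit1 and Ifit2, beside 27.4% and 29.7% of all tested genes. Rsad2, the antiviral enzyme viperin, had 0.805 and 0.850 CPM in E518K, 5.30 and 5.34 CPM in KO and 0.138 and 0.379 CPM in wt. Rsad2 rose in KO against wt by 4.35 ± 0.40 (adjusted p = 0.000172) and in E518K against wt by 1.67 ± 0.41 (adjusted p = 0.0266), and fell in E518K against KO by 2.68 ± 0.35 (adjusted p = 0.00128). The E518K against wt call did not survive without E518K clone 8 (1.71, adjusted p = 0.105), E518K clone 15 (1.64, adjusted p = 0.143), KO library 1 (1.67, adjusted p = 0.0666) or KO library 3 (1.67, adjusted p = 0.0664).

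Gbp4, a guanylate-binding protein, had 1.46 and 1.84 CPM in E518K, 8.77 and 8.61 CPM in KO and 0.166 and 0.514 CPM in wt. It rose in KO by 4.67 ± 0.42 (adjusted p = 0.000167) and in E518K by 2.27 ± 0.42 (adjusted p = 0.011), and fell in E518K against KO by 2.40 ± 0.36 (adjusted p = 0.00214). The E518K against wt call did not survive without E518K clone 8 (2.43, adjusted p = 0.0516) or E518K clone 15 (2.10, adjusted p = 0.0958). Gbp4 shares 99.8% of its span with Gbp8 and Gbp9 on the same strand, so its reads cannot be assigned to it alone.

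Parp9 and Dtx3l encode a complex of an ADP-ribosyltransferase and a ubiquitin ligase, and their start sites lie 681 bases apart on chromosome 16. Parp9 had 15.4 and 15.7 CPM in E518K, 42.1 and 46.6 CPM in KO and 7.09 and 9.40 CPM in wt. It rose against wt by 2.43 ± 0.14 in KO (adjusted p = 4.04e-05) and by 0.91 ± 0.14 in E518K (adjusted p = 0.00628). Dtx3l had 19.0 and 19.5 CPM in E518K, 42.5 and 43.3 CPM in KO and 9.30 and 11.8 CPM in wt. It rose against wt by 2.03 ± 0.12 in KO (adjusted p = 4.23e-05) and by 0.87 ± 0.12 in E518K (adjusted p = 0.00466). E518K fell against KO by 1.51 ± 0.14 for Parp9 and by 1.16 ± 0.12 for Dtx3l (adjusted p = 0.000403 and 0.000544). The E518K against wt calls were lost without E518K clone 15 for Parp9 (0.91, adjusted p = 0.0634) and Dtx3l (0.86, adjusted p = 0.0541). The pair overlaps by 682 bases and can share reads there.

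**Figure D3:**
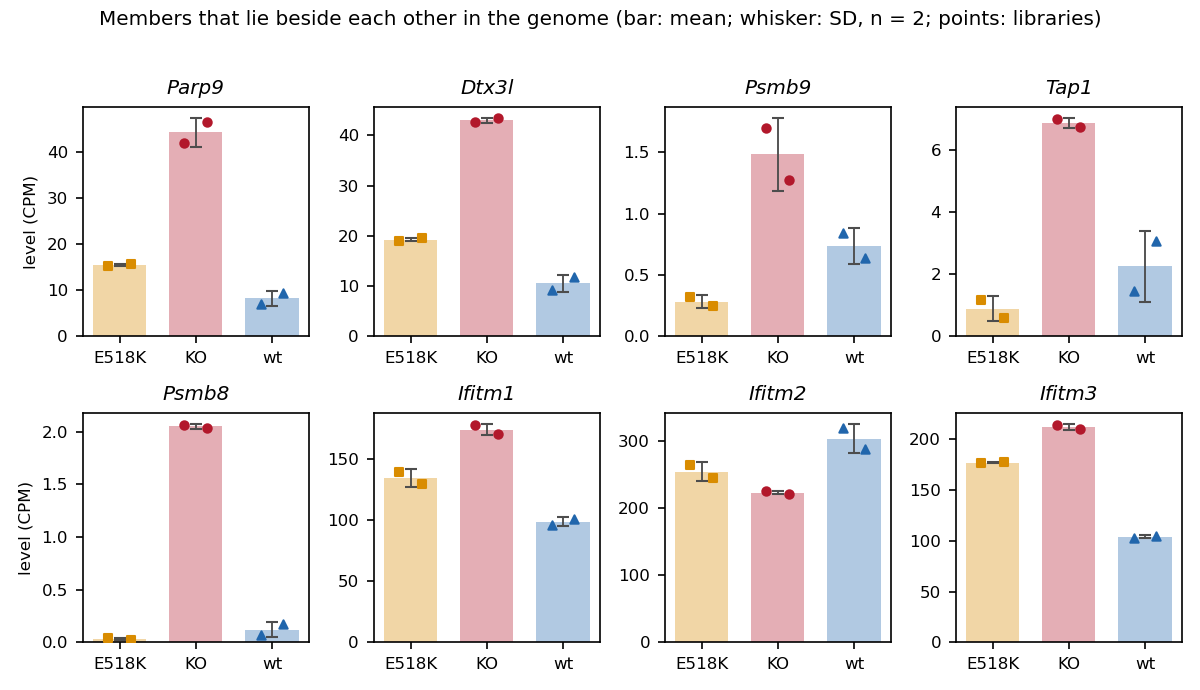
CPM of 8 genes that lie beside other members in the genome, with bars for the mean, whiskers for the SD of 2 libraries and points for single libraries. Parp9 and Dtx3l have the same order of groups, Psmb8, Psmb9 and Tap1 are lowest in E518K, and Ifitm2 is highest in wt while Ifitm1 and Ifitm3 are highest in KO.

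The Ifitm genes, which encode membrane proteins that block viral entry, are neighbours on chromosome 7 and went in opposite directions. Ifitm1 had 139.7 and 129.6 CPM in E518K, 178 and 171 CPM in KO and 96.4 and 101.5 CPM in wt. In KO, it rose by 0.82 ± 0.07 (adjusted p = 0.000118) and in E518K by 0.44 ± 0.07 (adjusted p = 0.00589), and fell in E518K against KO by 0.37 ± 0.07 (adjusted p = 0.00434). Without KO library 1 the E518K against KO call was lost (-0.34, adjusted p = 0.0625). Ifitm2 had 264 and 244 CPM in E518K, 225 and 221 CPM in KO and 319 and 288 CPM in wt. It fell in KO by 0.44 ± 0.07 (adjusted p = 0.0019) and in E518K by 0.26 ± 0.07 (adjusted p = 0.0432). The E518K call was lost without any 1 of the 6 libraries except wt clone 16: E518K clone 8 (-0.31, adjusted p = 0.0895), E518K clone 15 (-0.19, adjusted p = 0.259), KO library 1 (-0.25, adjusted p = 0.115), KO library 3 (-0.25, adjusted p = 0.115) and wt clone 12 (-0.18, adjusted p = 0.0551). Ifitm3, described without a test, had 176 and 177 CPM in E518K, 214 and 210.1 CPM in KO and 103.0 and 105.0 CPM in wt. Its log2 fold changes were 1.03 ± 0.06 in KO against wt, 0.76 ± 0.06 in E518K against wt and -0.26 ± 0.06 in E518K against KO. In the authors' TPM, a level per length of genomic span, Ifitm2 was the highest of the 3 genes in every group, at 1401 in E518K, 1327 in KO and 1745 in wt.

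Bst2, the tetherin that holds virus particles at the cell surface, had 12.7 and 10.2 CPM in E518K, 5.55 and 5.83 CPM in KO and 8.48 and 9.26 CPM in wt. It fell in KO against wt by 0.64 ± 0.15 (adjusted p = 0.00931) and was 1.01 ± 0.15 higher in E518K than in KO (adjusted p = 0.00208). The KO against wt call was lost without KO library 1 (-0.61, adjusted p = 0.0768) or KO library 3 (-0.68, adjusted p = 0.0567). Ifi35, a partner of Nmi, had 10.5 and 9.96 CPM in E518K, 26.5 and 24.5 CPM in KO and 5.52 and 6.38 CPM in wt, with log2 fold changes of 2.10 ± 0.12 in KO against wt, 0.78 ± 0.12 in E518K against wt and -1.31 ± 0.12 in E518K against KO. Oas1a, which makes the 2-5A activator of RNase L, had 59.6 and 55.8 CPM in E518K, 63.7 and 63.4 CPM in KO and 28.6 and 18.2 CPM in wt, with log2 fold changes of 1.44 ± 0.18 in KO against wt, 1.30 ± 0.18 in E518K against wt and -0.14 ± 0.18 in E518K against KO. Both are described with no test.

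Several classical induced genes were hardly detected. Ifit1, which binds foreign RNA ends, had 2 and 1 counts in E518K, 12 and 12 counts in KO and 0 counts in both wt libraries. Its level was at least 3.79-fold higher in KO than in wt at the floor of 3 counts per library, and the E518K to KO ratio was 0.133 (exact counting interval 0.0257 to 0.439). Ifit1 passed the filter on low counts only through its KO counts, so its calls against KO are no separate support. Its E518K against KO call was lost without E518K clone 8 (-3.35), E518K clone 15 (-2.40), KO library 1 (-2.81) or KO library 3 (-2.81). Isg15, a ubiquitin-like protein, had 7 and 0 counts in E518K, 11 and 4 counts in KO and 0 and 4 counts in wt. Ifit3 had 0 counts in both E518K libraries, 0 and 2 counts in KO and 0 counts in both wt libraries, and Ifit2 had at most 10 counts. Oas2, Isg20, Ifit2 and Samhd1 passed no comparison, with Samhd1, the dNTP-degrading enzyme, at 66.8 to 77.8 CPM.

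In Psmb9, Tap1 and B2m both E518K libraries lay below every KO and wt library, beside 11.4% of all tested genes. Of these 3 antigen processing genes, 2 fell in E518K against wt, beside 12.5%. Psmb8 was lowest in E518K too, but is left out here because it passed the filter only through KO. Psmb9, Tap1 and Psmb8 are neighbours, so they are not given as separate support. Psmb8, an inducible subunit of the immunoproteasome that passed the filter through its KO counts, had 3 and 2 counts in E518K, 160 and 157 counts in KO and 5 and 13 counts in wt. Psmb8 had a log2 fold change of 4.05 ± 0.45 in KO against wt, given with no adjusted p because of that filter. The ratio of summed counts in E518K to KO was 0.0168 (exact counting interval 0.00542 to 0.0396). The ratio in E518K to wt was 0.281 (0.0815 to 0.784), and that comparison did not pass in the fit (adjusted p = 0.093). Both intervals take each count as separate, and would be too narrow if both reads of a pair were counted. Psmb9, another such subunit, had 0.319 and 0.247 CPM in E518K, 1.69 and 1.27 CPM in KO and 0.841 and 0.636 CPM in wt. It rose in KO against wt by 1.00 ± 0.32 (adjusted p = 0.0317), fell in E518K against wt by 1.38 ± 0.36 (adjusted p = 0.0323) and fell in E518K against KO by 2.38 ± 0.35 (adjusted p = 0.00195). Its KO against wt call did not survive without E518K clone 8 (1.00, adjusted p = 0.0539), E518K clone 15 (0.99, adjusted p = 0.055), KO library 1 (0.78, adjusted p = 0.233), KO library 3 (1.20, adjusted p = 0.0759) or wt clone 16 (0.81, adjusted p = 0.0551). Its E518K against wt call did not survive without E518K clone 8 (-1.57, adjusted p = 0.0993), E518K clone 15 (-1.19, adjusted p = 0.186), KO library 1 (-1.38, adjusted p = 0.0821), KO library 3 (-1.38, adjusted p = 0.076) or wt clone 12 (-1.16, adjusted p = 0.0519).

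Tap1, a peptide transporter subunit, had 1.18 and 0.603 CPM in E518K, 6.996 and 6.75 CPM in KO and 1.45 and 3.07 CPM in wt. In KO, it rose against wt by 1.604 ± 0.40 (adjusted p = 0.0113) and fell in E518K against KO by 2.95 ± 0.43 (adjusted p = 0.00185), while E518K against wt gave -1.34 ± 0.42 (adjusted p = 0.059). Psmb9 and Tap1 start 211 bases apart on chromosome 17, overlap by 212 bases and can share reads there. Psmb8 lies 495 bases beyond Tap1. B2m, the light chain of MHC class I, had 7.72 and 7.38 CPM in E518K, 13.1 and 12.4 CPM in KO and 15.0 and 13.0 CPM in wt. It fell in E518K against wt by 0.90 ± 0.12 (adjusted p = 0.0044) and against KO by 0.75 ± 0.12 (adjusted p = 0.00297), while KO against wt gave -0.14 ± 0.12 (adjusted p = 0.339). The E518K against wt call did not survive without E518K clone 15 (-0.85, adjusted p = 0.0566). B2m lies wholly inside Patl2 on the other strand, so some of its counts can belong to Patl2.

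Other genes of the same pathways were counted over whole lists, and the genes named from them are called ones with the smallest p. The lists were chosen with earlier results of these data known. Unlike for the members, it was not checked which of their genes passed the filter on low counts only through KO. Of 35 other tested interferon-stimulated genes, 25 rose and 2 fell in KO against wt, with a median log2 fold change of 2.19, beside 27.4% and 29.7% of all tested genes. In E518K against wt, 9 rose and 1 fell (median 0.47), beside 11.3% and 12.5%, and in E518K against KO, 1 rose and 19 fell (median -1.22), beside 22.0% and 19.8%. Parp10 had 3.23 and 3.55 CPM in E518K, 24.5 and 24.2 CPM in KO and 1.28 and 1.64 CPM in wt. Parp10 rose in KO against wt by 4.06 ± 0.16 (adjusted p = 1.39e-05) and in E518K against wt by 1.22 ± 0.16 (adjusted p = 0.00384). Among 14 other antigen processing genes, 10 rose and 2 fell in KO against wt (27.4% and 29.7% of all tested genes), 6 rose and 4 fell in E518K against wt (11.3% and 12.5%), and 1 rose and 6 fell in E518K against KO (22.0% and 19.8%).

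Among 22 other tested sensors and adaptors, 10 rose and 3 fell in KO against wt (27.4% and 29.7% of all tested genes), 5 rose and the other 17 were not called in E518K against wt (11.3% were called higher and 12.5% lower), and 2 rose and 8 fell in E518K against KO (22.0% and 19.8%). Ripk1, a kinase of death and inflammatory signalling, had 18.2 and 22.3 CPM in E518K, 30.2 and 30.3 CPM in KO and 12.1 and 13.1 CPM in wt. Of 8 other receptor parts and brakes, 4 rose and 2 fell in KO against wt (27.4% and 29.7%), and Socs3, an inhibitor of JAK signalling, rose by 1.37 ± 0.10 (adjusted p = 7.92e-05). Of 13 tested IRF and STAT factors, 4 rose and 3 fell in KO against wt, shares close to the 27.4% and 29.7% of all tested genes. Among those that rose was Irf9, the partner of Stat2, at 17.5 and 18.2 CPM in E518K, 52.5 and 48.8 CPM in KO and 13.8 and 14.3 CPM in wt. Of 12 interferon ligand genes in the table, 7 had 0 counts in all 6 libraries, and leaving out Ifnk the highest count of the rest was 6. Ifnk was the only one tested and passed no comparison.

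**Figure D4:**
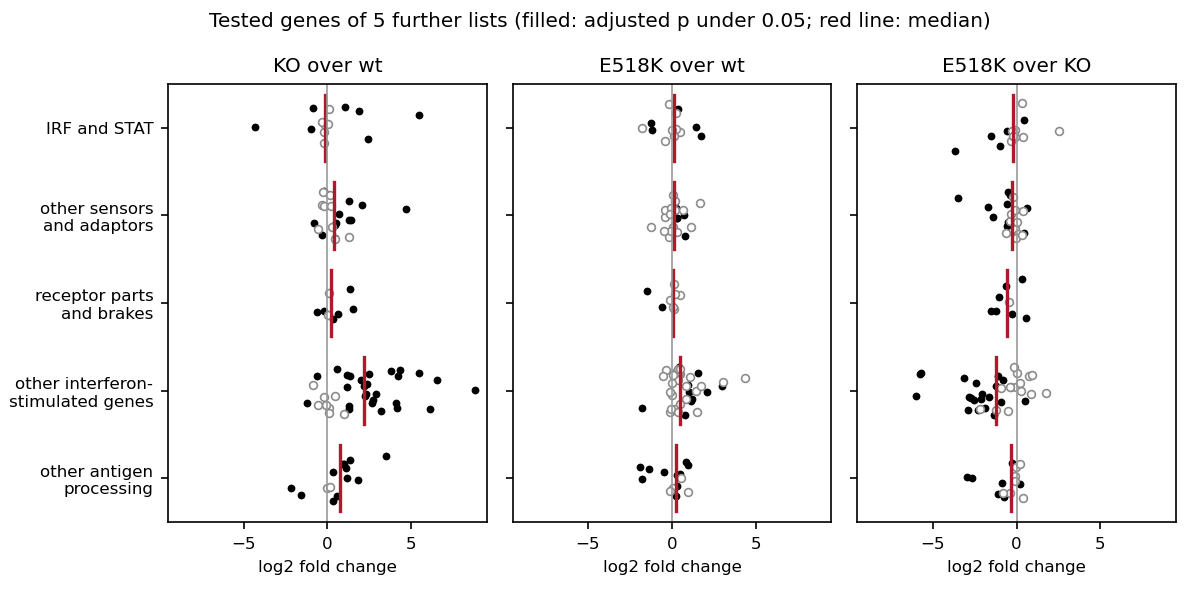
Log2 fold change of each tested gene in 5 further lists, for the 3 comparisons, with filled points for adjusted p under 0.05 and a red line at the median of the list. The other interferon-stimulated genes have a median of 2.19 in KO over wt and -1.22 in E518K over KO, while the IRF and STAT list is centred near 0.

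Since DGCR8 acts in miRNA release, the seed of the miR-290 family, abundant in embryonic stem cells, was searched in 3′ UTRs. The mature sequences from RefSeq (GRCm38.p6, plus strand of chromosome 7) are shown because they share 1 seed, bases 2 to 8, in capitals. They lie at chr7:3218968-3218989, chr7:3220691-3220712 and chr7:3220815-3220837, in the order given.
mmu-miR-291a-3p: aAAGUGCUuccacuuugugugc
mmu-miR-294-3p: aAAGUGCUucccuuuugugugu
mmu-miR-295-3p: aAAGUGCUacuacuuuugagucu
A site for this seed, AGCACTT, was present in the longest 3′ UTR of 7 of the 40 genes (17.5%), namely Tlr3, Eif2ak2, Ifngr2, Stat2, Oas1a, Ifit2 and Dtx3l, against 16.7% of 14791 tested genes. The share is close to that of all tested genes, but the median 3′ UTR was 848.5 bases in the 40 genes and 1121 in tested genes. The shares were not adjusted for length, and the 40 include genes that were not tested. Eif2ak2, Ifngr2 and Dtx3l rose in KO against wt, Stat2 fell, and Tlr3 and Ifit2 passed no test.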

How the data were processed

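The deposited count table held whole-number counts per gene symbol and library, not normalized by the authors, and deposited TPM values are these counts scaled by the authors for length and depth. Per the submitters' processing notes the tools were STAR and bedtools and the build was GRCm38.p6, with no versions. The length implied by count and TPM was within 5% of the genomic span for 98.5% of 12689 genes and of the exonic length for 4.38%, so counts behave as reads over the whole span, introns included. Even counts were in excess (57.3% to 60.6% of non-zero counts), and counts halved to read pairs were tried after seeing the data.

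Counts were tested with edgeR 4.0.16 in R 4.3.3 (TMM, expression filter with a minimum count of 10, robust quasi-likelihood fit, all 6 libraries in 1 fit with group as the only term, 3 residual degrees of freedom). Adjusted p follows Benjamini and Hochberg over 16498 genes, with a threshold of 0.05. DESeq2 1.42.0 and limma 3.58.1 on log2(TPM + 1) served as alternatives. CPM was computed here with TMM factors. Intervals and floors cover counting error only and take each count as separate. Given the excess of even counts, the intervals would be too narrow wherever both reads of a pair were counted.

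The members and lists were chosen with earlier results of these data known. All 40 members are named, and from the other lists at most 4 called genes per list and comparison, smallest p first. Zbp1, Ifi35, Ifitm3 and Oas1a have no test, and leaving them out of the counts of calls was decided after the counts with them had been seen. With them included the calls were 22 higher and 5 lower of 37 in KO against wt, 13 and 4 in E518K against wt, and 2 and 20 in E518K against KO. Coordinates come from GENCODE M21 on GRCm38 and promoters and miRNAs from RefSeq.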

Additional observations from a re-analysis of the deposited data

How the results depend on the processing

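No paired analysis was possible because the groups share no replicate numbers. No called member changed sign under any alternative. E518K against wt gave 13 member calls, 6 with only the 2 groups compared and 6 with the KO libraries summed. Over all genes, KO against wt gave 9429 calls and 6163 with the KO libraries summed. E518K against wt gave 3917, 1999 with only the 2 groups compared and 1909 with the KO libraries summed. E518K against KO gave 6902 and 3267 with the KO libraries summed. Leaving out 1 library at a time, member calls ranged from 17 to 25 in KO against wt, 1 to 17 in E518K against wt and 12 to 23 in E518K against KO, and gene calls from 6084 to 10958, 644 to 6987 and 3285 to 9482. The lowest E518K against wt values came without E518K clone 15, where Ifitm1 was the only member called. Called without each library in turn were 17 of 23 members in KO against wt, 1 of 13 in E518K against wt and 12 of 19 in E518K against KO. Under every alternative they were 16, 1 and 12, since Ifit1 was not tested with counts halved to read pairs. Of all genes called in E518K against wt, 47.5% were higher, against 37.5% with upper-quartile normalization, 26.8% with limma on log2(TPM + 1), 60.1% without E518K clone 8 and 60.2% without E518K clone 15, and in E518K against KO 52.7% against 40.7% with limma. The cause of these shifts was not tested. In 12 comparisons of a member that was not called, the sign changed under an alternative, and the gene was not called there either. In KO against wt these were Tyk2 and Oas2 with upper-quartile normalization (-0.0501 and -0.00665 on the log2 scale) and Tyk2 with no low-count filter (-0.00764), and in E518K against KO Samhd1 with limma (-0.035). The others came from leaving out 1 library. In KO against wt the range was -0.58 to 0.41 for Dhx58, -0.21 to 0.0097 for Trim25, -0.085 to 0.091 for Tyk2, -0.021 to 0.11 for Oas2 and -0.0042 to 0.88 for Isg20. In E518K against wt it was -0.53 to 0.44 for Tlr3, -0.22 to 0.036 for Adar, -0.75 to 0.22 for Isg20 and -4.67 to 5.40 for Ifit2. In E518K against KO it was -0.099 to 0.011 for Mavs and -5.79 to 0.63 for Ifit2, which had at most 10 counts. With 2 libraries per group, the spread is pooled over groups whose coefficients of variation were 9.19% in E518K, 2.61% in KO and 20.6% in wt. A gene under 3 counts per library cannot be told from 0.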

Other observations

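Promoters with the ISRE core, GAAA then any 2 bases then GAAA, were also followed outside the gene set. Leaving out the 40 genes, 425 tested genes had the core, and 36.9% of them were called higher and 23.8% lower in KO against wt. Of 11991 tested entries with a promoter, 27.7% were higher and 30.9% lower. In E518K against wt, 14.6% of the core-bearing genes were higher and 8.47% lower, beside 11.7% and 12.8% of all. In E518K against KO, 21.6% were higher and 24.9% lower, beside 23.2% and 20.3% of all. These shares are descriptions, with no test.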
